A study of Mus musculus with 18 samples.

Results

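Hspa8, Rpl21, Rpl13a, Nop58, Gas5 and Snhg1 are genes whose spans hold small nucleolar RNAs (snoRNAs), and their chimeric reads with microRNAs (miRNAs) were stacked in narrow peaks. These 6 of 17548 genes with reads were selected on measured values: the concentration of their reads on single positions, the share of repeated reads, their miRNAs and their closeness to snoRNA spans in earlier results of these libraries. Those measures, and the wild-type enriched libraries in which they stood out, are therefore described here and not tested. All chimeric reads on the strand of each gene were counted within its RefSeq span on GRCm38.p6, which gave 8095 of 1190995 reads. The other strand held 0 reads in each of the 6 genes.

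The libraries came from thymocytes of mice 6 weeks old and were made by miR-eCLIP. Light of 254 nm fixes RNA to Argonaute 2 (Ago2), which holds the miRNA. After immunoprecipitation (IP) of Ago2 the miRNA is ligated to the RNA beside it, so that 1 read names a miRNA and a position. Wild-type mice were C57BL/6, and knockout mice were B6.Mirc14tm1.1Ankr, titled miR181a/b-1-KO, which lack the Mir181a-1 and Mir181b-1 genes. Each genotype had 3 libraries of an Ago2 IP (treatment Ago2) and 3 with a further enrichment for miR-181 (treatment miR181-5p), and the 6 input samples were not analysed here. No label says whether the 3 libraries of a group came from separate animals, so the p-values measure the spread between these libraries, which may be technical.

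Box C/D and H/ACA snoRNAs guide methylation and pseudouridylation of ribosomal RNA. In mammals most of them are cut from introns of host genes, many of which encode ribosomal or nucleolar proteins or are long noncoding RNAs whose snoRNAs are their best known product. Ago2 with its miRNA is known mainly for binding messenger RNA through the miRNA seed, and miR-181a is abundant in developing thymocytes.

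The miRNAs that made up most of the chimeras on these genes are shown as RefSeq gives them for GRCm38.p6, with the seed (bases 2 to 8 from the 5′ end) in capitals, because the 4 members of the miR-181 family share that seed and differ after it.
miR-181a-5p: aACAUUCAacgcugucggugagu
miR-181b-5p: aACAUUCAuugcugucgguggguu
miR-181c-5p: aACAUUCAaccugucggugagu
miR-181d-5p: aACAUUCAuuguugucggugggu
miR-142a-3p: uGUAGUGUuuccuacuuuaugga
miR-16-5p: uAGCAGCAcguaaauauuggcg
let-7f-5p: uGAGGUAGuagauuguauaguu
let-7a-5p: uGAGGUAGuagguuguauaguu
Over the 23 bases they have in common, miR-181b-5p differs from miR-181a-5p at 3 positions, A9U, C10U and A21G, counted from the 5′ end of miR-181a-5p. miR-181d-5p differs at 4 positions, A9U, C10U, C12U and A21G. The table lists 2 loci each for miR-181a-5p and miR-181b-5p, and the knockout removes 1 of each. let-7f-5p and let-7a-5p share a seed too.

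The libraries held between 6832 and 293149 chimeric reads, with the knockout enriched libraries the shallowest (12186, 19264 and 6832). The miR-181-5p family made up 30.1% to 32.3% of reads in wild-type and 1.32% to 1.44% in knockout Ago2 IP libraries, which follows the genotype labels, and 98.8% to 99.2% and 70.5% to 72.6% after enrichment. All 8 thymocyte markers examined (Cd3e, Cd4, Cd8a, Cd8b1, Rag1, Dntt, Ptcra and Lck) had reads, summing per library to 4908 to 10539 rpm (reads per 1000000 chimeric reads of a library). Ptcra had only 6 reads, in 5 libraries, fewer than the myeloid marker Lyz2 with 7. The 11 markers of B cells, erythroid cells, myeloid cells and thymic epithelium summed to at most 51.9 rpm per cell type in any library, and Krt5 and Krt8 were at 0. A library lists chimeras, not transcripts, so fewer contacts, less host RNA and less miRNA cannot be told apart, nor can fewer cells of a type and less RNA per cell.

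The reads of the 6 genes formed 22 peaks of at least 20 reads, joining positions at most 20 nt apart, which held 7801 of the 8095 reads. The most frequent position lay inside a snoRNA span or within 5 nt of one in 15 peaks and within 20 nt in 17. The other 5 peaks held 539 reads. Of the 29 snoRNA spans in these genes, 28 had a read within 20 nt and 18 had at least 20.

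Hspa8 encodes the constitutive Hsc70 chaperone (gene 15481, chr9:40801276-40805202, plus strand) and holds Snord14c, Snord14d and Snord14e. Of its 2909 reads, 2425 lay in 1 peak 34 nt wide beside Snord14e (chr9:40804748-40804838), with 848 at the single position 40804743, 5 nt before the span. Repeats of an earlier read of the same library, position and miRNA made up 96.1% of that peak. miR-181a-5p made up 92.1% of it and the miR-181 family 99.9%. Snord14c, upstream, had 54 reads in a peak 7 nt wide whose most frequent position was 3 nt before its span.

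A further Hspa8 peak was unlike those beside snoRNAs. It was 155 nt wide (chr9:40802732-40802886), ended 697 nt before the nearest snoRNA span (812 nt from its most frequent position) and held 331 reads over 63 positions, with 14.2% of them at the most frequent. In the wild-type Ago2 IP it had 31, 19 and 11 reads, and in the knockout Ago2 IP 1, 1 and 0, so the groups did not overlap. Its miRNAs included 14 reads of miR-16-5p, 4 of miR-15a-5p and 3 of miR-15b-5p, all in wild-type Ago2 IP libraries, beside 274 of miR-181a-5p. The gene table used here gives no exons, so the peak was not assigned to an exon or an intron.

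Rpl21, a protein of the large ribosomal subunit (gene 19933, chr5:146832890-146837032, plus strand), had the narrowest distribution of the 6. Of its 2600 reads, 2583 lay in 1 peak 24 nt wide beside the snoRNA LOC115490268 (chr5:146834834-146834904), and 1307 were at the single position 146834832, 2 nt before the span. The second snoRNA span of the gene, LOC115490276, had 0 reads within 20 nt. Repeats made up 96.5% of the peak, and miR-181a-5p and miR-181b-5p made up 79.8% and 18.5%.

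Rpl13a, another protein of the large subunit (gene 22121, chr7:45125563-45128745, minus strand), holds Snord32a, Snord33, Snord34 and Snord35a, and all 4 had peaks, of 238, 117, 265 and 27 reads. Pooled over all libraries, the most frequent miRNA differed between Snord33, Snord34 and Snord32a. At Snord33 (chr7:45126864-45126945) 67 of 117 reads were of miR-142a-3p, and 65 of those were from Ago2 IP libraries, 23 wild-type and 42 knockout. At Snord34 (chr7:45126603-45126668) 222 of 265 were of miR-181b-5p, and at Snord32a (chr7:45127383-45127463) 189 of 238 were of miR-181a-5p. These pooled counts mix library types. In the Ago2 IP libraries miR-142a-3p led at Snord32a too, with 14 of 18 wild-type and 9 of 10 knockout reads. In the wild-type enriched libraries miR-181a-5p and miR-181b-5p gave 25 and 16 of the 43 reads at Snord33.

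Nop58 encodes a core protein of box C/D snoRNA particles and itself hosts snoRNAs (gene 55989, chr1:59684961-59711510, plus strand). Of its 822 reads, 707 lay in a peak 29 nt wide at the snoRNA Gm26287 (chr1:59704258-59704338), most often on the second base of the span. Snord11 had a peak of 38 reads, most often 19 nt before its span, with 7 reads of miR-142a-3p, all from Ago2 IP libraries.

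Gas5 and Snhg1 are long noncoding snoRNA hosts with 8 snoRNA spans each. Gas5 (gene 14455, chr1:161034601-161038539, plus strand) spread its 642 reads over 7 peaks, of which the largest, 210 reads, lay 2 nt before LOC115487638 (chr1:161036057-161036139). A broad Gas5 peak, 114 nt wide with 101 reads over 50 positions, started 72 nt past the same snoRNA. In Snhg1 (gene 83673, chr19:8723487-8726326, plus strand) 226 of 420 reads lay in a peak beside LOC115489081 (chr19:8725092-8725156), most often 4 nt before it. That peak had 21 reads of let-7f-5p, 9 of let-7a-5p and 8 of let-7d-5p beside 157 of miR-181a-5p. In the Ago2 IP libraries it had 12, 12 and 12 wild-type and 10, 8 and 6 knockout reads. Scaled to depth these were 102, 174 and 273 rpm (reads per 1000000 chimeric reads) against 165, 118 and 115 rpm, so the groups overlapped.

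Among 2569 genes with at least 50 reads in the wild-type enriched libraries, the median share of a gene's reads inside its best 10-nt window was 11.1%, and the highest 10% of genes started at 30.1%. Rpl21 had 99.1% in such a window (rank 10), Hspa8 85.2% (rank 26) and Nop58 77.7% (rank 29). Snhg1 had 49.8% (rank 84), Rpl13a 41.4% (rank 129) and Gas5 32.0% (rank 228), so that Gas5, whose reads fall beside several snoRNAs, lay just inside the highest 10%. Pooled over the 6 genes, repeats made up 86.4% ± 0.0798 (SD, n = 3) of reads in wild-type enriched libraries, 27.6% ± 5.51 in wild-type Ago2 IP, 16.2% ± 6.43 in knockout Ago2 IP and 15.2% ± 9.27 in knockout enriched libraries. Over all reads of a library repeats made up 27.9% to 34.1% in wild-type enriched and 3.42% to 4.72% in wild-type Ago2 IP libraries. They made up 3.24% to 3.53% in knockout Ago2 IP and 5.84% to 7.91% in knockout enriched libraries. Depth differed between the groups too, and its part in these shares was not tested. Whether a repeat is a second molecule or a copy of the first was not tested.

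Most peaks sat near 1 end of the snoRNA, and that end differed between the strands. Each snoRNA span has a low-coordinate edge, which is its 5′ end on the plus strand and its 3′ end on the minus strand. For the 14 snoRNAs of the 5 plus-strand genes with at least 20 reads within 20 nt, the median of the most frequent position was 3 nt before the low edge, outside the span. For the 4 snoRNAs of Rpl13a, the minus-strand gene, it was 7.5 nt inside the low edge, near the 3′ end.

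**Figure D1:**
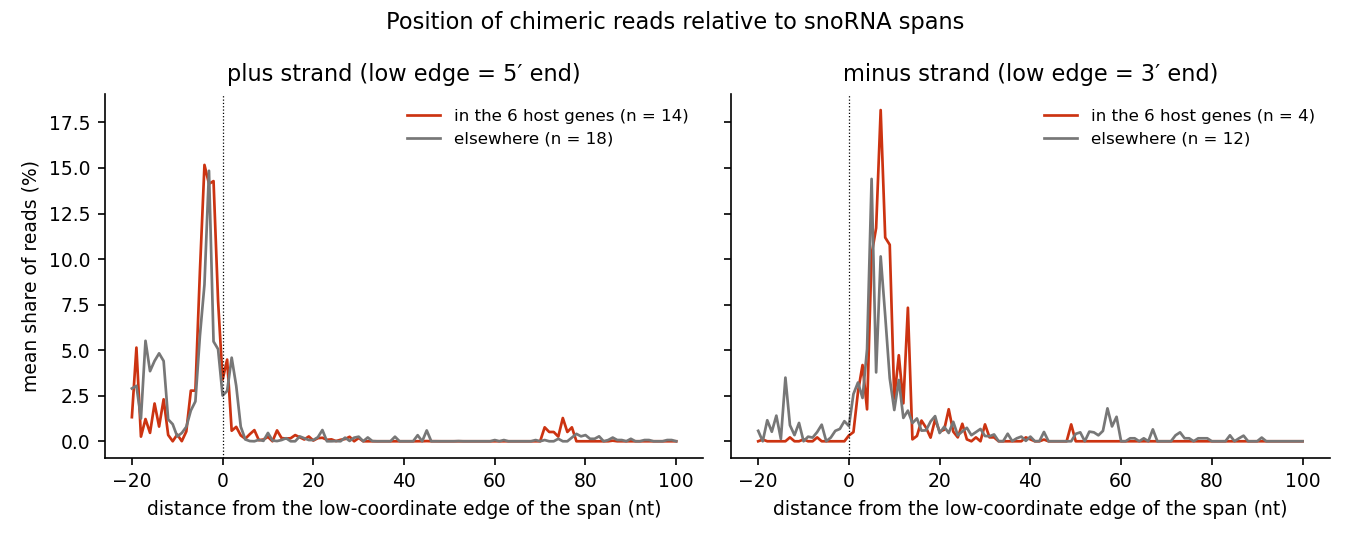
Mean share of reads (y axis, percent, each snoRNA weighted equally) against distance from the low-coordinate edge of the snoRNA span (x axis, nt), for snoRNAs with at least 20 reads within 20 nt, in the 6 host genes (red) and elsewhere (grey), by strand. Both lines peak just before the edge on the plus strand and just inside it on the minus strand.

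The same placement was measured at snoRNAs outside these genes. Of 18 other plus-strand snoRNAs the median was 4 nt before the low edge, and 11 had their most frequent position within 10 nt of it. Of 12 other minus-strand snoRNAs the median was 5 nt inside, and 9 were within 10 nt. In neither set was any within 10 nt of the high edge, whereas 1 snoRNA in the 6 genes was, LOC115489082 of Snhg1. How the deposited 1-nt position was placed within a read is not given in the sources used here, and its part in this difference between strands was not tested.

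Few reads of most plus-strand snoRNAs thus lay strictly inside the span, but single snoRNAs varied widely on both strands. Outside the 6 genes the share inside ran from 0% to 100% (median 2.98%) on the plus strand and from 12.1% to 100% (median 97.2%) on the minus strand. By gene it was 91.7% of the reads of Rpl13a, 58.0% of Nop58, 19.6% of Gas5, 8.10% of Snhg1, 4% of Rpl21 and 0.653% of Hspa8. With the spans widened by 20 nt on both sides the shares were 92.3%, 91.5%, 75.2%, 93.6%, 99.7% and 85.9%. Pooled over the 6 genes, the strict share was 20.7% ± 3.07 (SD, n = 3) in wild-type Ago2 IP, 46.2% ± 5.32 in knockout Ago2 IP, 16.2% ± 1.16 in wild-type enriched and 30.5% ± 6.95 in knockout enriched libraries. The widened share was 70.6%, 74.4%, 92.4% and 94.9% in the same order. The pooled strict share mixes genes in different proportions: Hspa8, with 3 of 147 reads inside, dropped to 7 reads in the knockout Ago2 IP. Within genes it was 83.3% and 87.8% for Rpl13a in wild-type and knockout Ago2 IP, 29.6% and 32.3% for Nop58 and 18.3% and 26.7% for Gas5. For Rpl21 it was 12.1% and 16.7% (6 knockout reads), for Snhg1 0% and 5.41%, and for Hspa8 2.04% and 0%. The 95% Wilson intervals overlapped in each gene. How far the mix of genes made the pooled difference was not tested.

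Snord34 and Snord32a of Rpl13a, which lie on either side of Snord33, differed in their miR-181 member. Of the miR-181a-5p and miR-181b-5p reads of the wild-type enriched libraries, miR-181b-5p made up 93.6% at Snord34 (219 of 234, 95% Wilson interval 89.7% to 96.1%) and 7.54% at Snord32a (15 of 199, 4.62% to 12.1%). By library the share at Snord34 was 93.3%, 92.9% and 94.9%, and at Snord32a 15.5%, 2.5% and 4.17%, so the libraries of the peaks did not overlap. Over all reads of these libraries it was 18.4%, by library 17.3%, 18.3% and 20.3%. Intervals cover counting error alone, because repeats may be copies of 1 molecule.

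**Figure D2:**
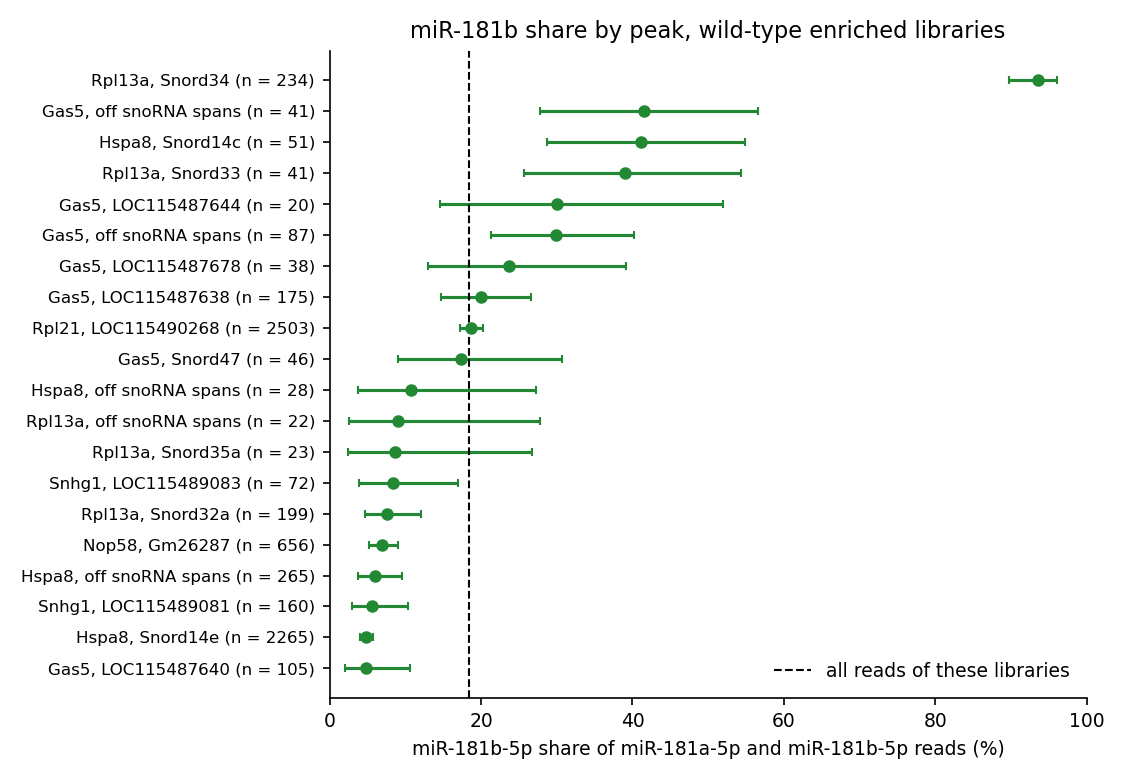
Share of miR-181b-5p among miR-181a-5p and miR-181b-5p reads (x axis, percent, with 95% Wilson intervals) for the peaks with at least 20 such reads in the wild-type enriched libraries, named by host gene and nearest snoRNA, n being the reads. The dashed line is the share over all reads, 18.4%, and Snord34 stands at 93.6%.

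Other peaks fell on both sides of the library-wide share. Rpl21 was close to it at 18.7% (17.2% to 20.2%, 2503 reads). Snord14e of Hspa8 was lower at 4.81% (4.0% to 5.77%, 2265 reads), as was Gm26287 of Nop58 at 6.86% (5.17% to 9.06%, 656 reads). Snord14c of Hspa8 had 41.2% (28.8% to 54.8%, 51 reads), so 2 snoRNAs of the same gene differed in their miRNA makeup. In the knockout enriched libraries the Snord14e peak had 24 reads, 12 of miR-181a-5p and 12 of miR-181c-5p, while miR-181c-5p had 58 of its 2329 reads in the wild-type enriched libraries. Over whole knockout enriched libraries miR-181a-5p made up 32.3% to 33.3% and miR-181b-5p 13.1% to 15.2%, with the family at 70.5% to 72.6%. In wild-type enriched libraries the values were 78.2% to 80.8%, 17.0% to 20.0% and 98.8% to 99.2%. The other family members thus had a larger share in the knockout library-wide.

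Between genotypes, the Ago2 IP comparison asks which contacts are fewer without the deleted miRNA genes. Hspa8 fell in the knockout, and none of the 4 other genes that could be tested passed. Reads and miRNA names of the Ago2 IP libraries entered the choice of the genes, though not this contrast. Its p-values are therefore not independent of that choice and are given as a description. Of the 147 wild-type Hspa8 reads 104 were of the miR-181 family, whose share is lower in the knockout library-wide. A fall in such reads was thus built into the contrast. Wild-type libraries had 69, 44 and 34 Hspa8 reads (585, 637 and 773 rpm) and knockout libraries 4, 2 and 1 (65.8, 29.6 and 19.2 rpm). Every knockout library lay below every wild-type library. Hspa8 passed the count filter, which lay at 156 rpm here, only through the wild-type libraries, so a call could only have been in this direction. The log2 fold change was -4.01 (SE 0.37, adjusted p = 2.89e-13, edgeR quasi-likelihood test with Benjamini-Hochberg adjustment), and without the filter it was -4.10 (adjusted p = 5.59e-24). Over the 1615 genes tested, 6.75% were called lower and 3.41% higher, at an adjusted p of at most 0.05.

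The Hspa8 chimeras of other miRNAs were also fewer in the knockout. They averaged 210 ± 79.0 rpm (SD, n = 3; 43 reads) in wild-type and 21.4 ± 25.3 rpm (4 reads) in knockout Ago2 IP libraries, too few for the count filter of that fit, so the difference was not tested. miR-181 chimeras on Hspa8 averaged 455 ± 73.9 and 16.8 ± 2.23 rpm.

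Rpl21 had 11, 13 and 9 wild-type reads (93.3, 188 and 205 rpm) and 3, 2 and 1 knockout reads (49.4, 29.6 and 19.2 rpm), with no overlap, but did not pass the count filter. Without the filter its log2 fold change was -2.17 (adjusted p = 0.0176, edgeR), and in DESeq2 it was -2.25 (adjusted p = 0.106). Of its 33 wild-type reads 30 were of the miR-181 family.

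Rpl13a was at 221, 217 and 432 rpm in wild-type and 362, 473 and 384 rpm in knockout Ago2 IP libraries, which overlapped, and its log2 fold change of 0.62 (SE 0.26, adjusted p = 0.136, edgeR) did not pass. Without wild-type replicate 3 it was 0.85, with an adjusted p of 0.0378 (edgeR). With chimeras of other miRNAs alone, a setting chosen after seeing the data, it was 0.31 (SE 0.28, adjusted p = 0.726, edgeR). Of its wild-type reads 52 of 60 were of other miRNAs, mostly miR-142a-3p.

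The 3 remaining genes did not pass either (edgeR), and the groups overlapped for Nop58 and Snhg1. Nop58 was at 136, 57.9 and 159 rpm against 165, 192 and 154 in the knockout, a log2 fold change of 0.52 (SE 0.41, adjusted p = 0.495). Gas5 was at 238, 261 and 318 rpm against 197, 163 and 134, without overlap, at -0.67 (SE 0.32, adjusted p = 0.191). Snhg1 was at 178, 232 and 273 rpm against 263, 163 and 192, at -0.09 (SE 0.32, adjusted p = 0.92). miR-181 chimeras were at 0 reads in the knockout for Gas5 and Snhg1, which had 16 and 9 in the wild type, while other miRNAs gave 44 and 40 wild-type and 30 and 37 knockout reads.

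**Figure D3:**
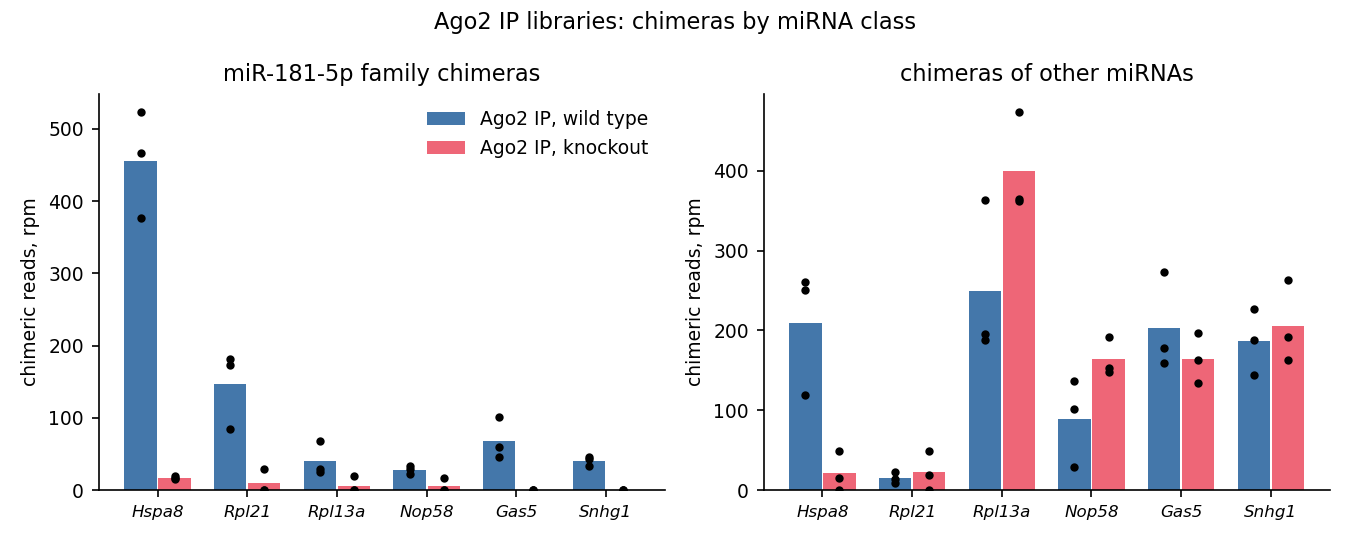
Chimeric reads (rpm) of the 6 genes in the Ago2 IP libraries (bars are means, points the 3 libraries of a group), for chimeras of the miR-181-5p family (left) and of all other miRNAs (right). In Hspa8 both classes are lower in the knockout, from 455 to 16.8 and from 210 to 21.4 rpm, while in Rpl13a most reads are of other miRNAs in both genotypes.

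The enrichment for miR-181 was also compared with the Ago2 IP in the knockout. The reads of these libraries entered the choice of the genes too, though not this contrast, so its p-values are a description as well. Hspa8, Nop58 and Gas5 were higher after enrichment, and Rpl13a did not pass the test. The count filter lay at 280.3 rpm here, and Hspa8, Nop58 and Gas5 reached it only in the enriched libraries, so they could have been called only higher and their number supports nothing about the 6 genes. Rpl13a reached it in all 3 Ago2 IP libraries. Hspa8 had 11, 13 and 4 reads after enrichment (903, 675 and 585 rpm), above all 3 Ago2 IP libraries, with a log2 fold change of 4.29 (SE 0.47, adjusted p = 3.83e-15, edgeR), and of 3.68 without the filter (adjusted p = 3.15e-08). Of 828 genes tested, 15.6% were called higher and 5.8% lower. Scaled to library sizes alone, 122 genes were higher and 103 lower, against 129 and 48 with TMM, and the median of all genes moved from -0.07 to -0.25.

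Nop58 had 4, 17 and 4 reads (328, 882 and 585 rpm) after enrichment, also above all 3 Ago2 IP libraries, at 2.08 (SE 0.42, adjusted p = 1.47e-05, edgeR). Gas5 had 5, 9 and 4 reads (410, 467 and 585 rpm), again without overlap, at 1.65 (SE 0.45, adjusted p = 0.00215). Both calls were lost without knockout enriched replicate 2, the deepest library of its group. Without it Nop58 was at 1.33 (adjusted p = 0.243) and Gas5 at 1.55 (adjusted p = 0.125, edgeR). Without the filter Nop58 was at 1.46 (adjusted p = 0.0448) and Gas5 at 1.04 (adjusted p = 0.403, edgeR). Gas5 also did not pass in DESeq2 (1.44, adjusted p = 0.0646).

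Rpl13a had 7, 5 and 3 reads (574, 260 and 439 rpm) after enrichment and overlapped the Ago2 IP libraries, at 0.11 (SE 0.43, adjusted p = 0.91, edgeR), a sign that turned with the scaling (-0.0604 by library sizes alone). Rpl21, with 1, 7 and 2 reads, and Snhg1, with 7, 1 and 5, did not pass the count filter.

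**Figure D4:**
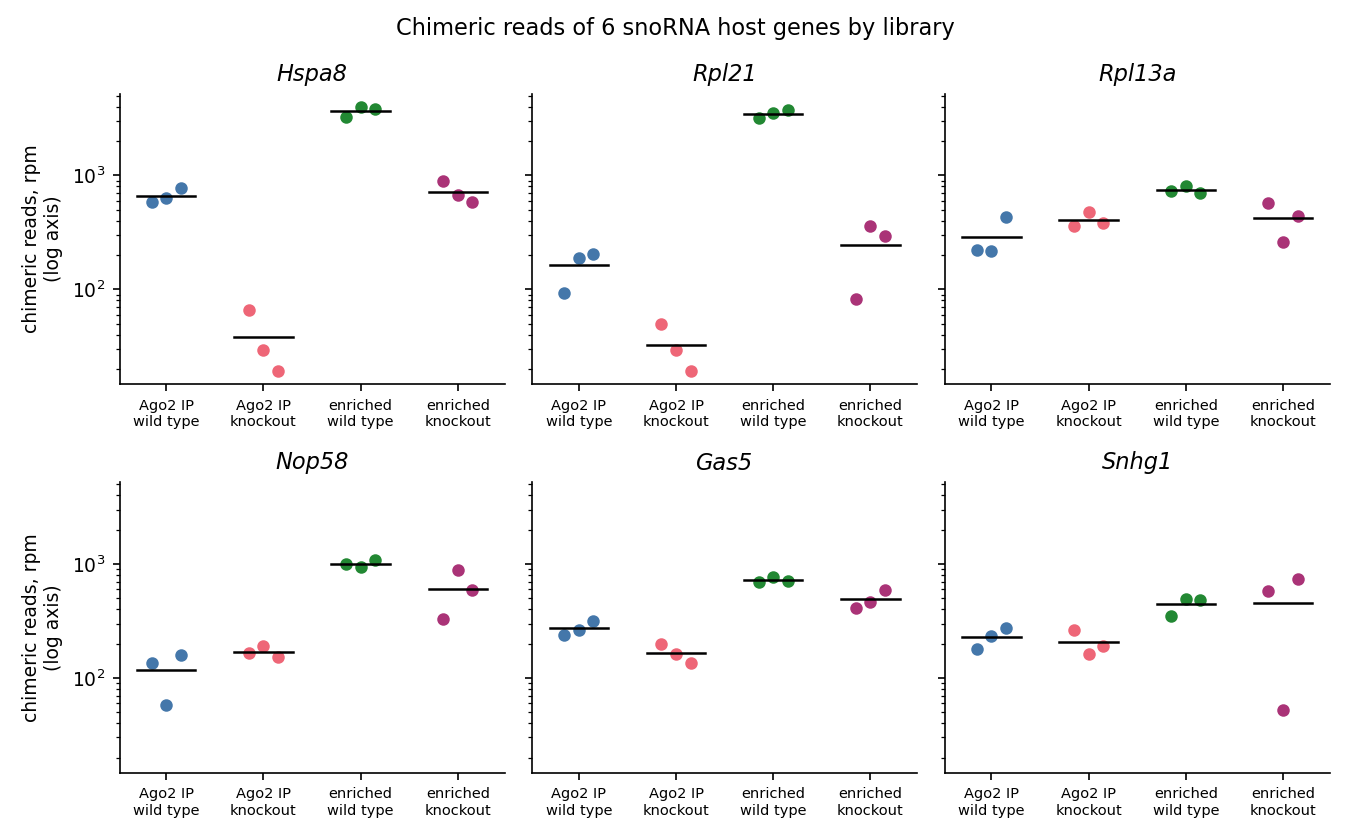
Chimeric reads (y axis, rpm, log scale) of each host gene in each of the 12 libraries, by group (points are libraries, bars group means). Hspa8 and Rpl21 are lowest in the knockout Ago2 IP (means 38.2 and 32.7 rpm) and highest in the wild-type enriched libraries (3710 and 3479 rpm).

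The wild-type enriched libraries chose these genes, so their levels are given without a test. Hspa8 was at 3710 ± 374 rpm (SD, n = 3), Rpl21 at 3479 ± 291, Nop58 at 1003 ± 67.8, Rpl13a at 743 ± 54.9, Gas5 at 722 ± 36.7 and Snhg1 at 441 ± 81.1. Hspa8 and Rpl21, and Rpl13a and Gas5, lay within each other's spread. Against wild-type Ago2 IP the log2 fold changes were 2.89 for Hspa8, 4.94 for Rpl21, 1.87 for Rpl13a, 3.47 for Nop58, 1.83 for Gas5 and 1.40 for Snhg1.

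Knockout against wild type after enrichment, the log2 fold changes were -2.63 for Hspa8, -4.02 for Rpl21, -1.20 for Rpl13a, -0.92 for Nop58, -0.90 for Gas5 and -0.63 for Snhg1. The Snhg1 means did not fall (441 and 453 ± 356 rpm, the latter from 7, 1 and 5 reads), and its fitted value by library sizes alone was -0.34. All 6 turned positive when identical reads of a library were counted once, at 0.0847, 0.79, 0.16, 0.91, 0.0618 and 0.54. Counting once caps a narrow peak at its number of positions and miRNAs, and the wild-type enriched libraries were the deepest. The part of this cap, of depth or of copied reads in the change of sign was not tested. For Hspa8 the Ago2 IP difference kept its direction when reads were counted once, at -3.24 (adjusted p = 3.84e-10, edgeR).

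Other snoRNA hosts are given beside these genes by counts and medians. Of 483 other host genes by annotation, 71 were tested between genotypes in the Ago2 IP, where 1 was called higher and 6 lower, with a median log2 fold change of 0.03 beside 0.02 over all genes. In the knockout enrichment 43 were tested and 6 were called, each of them higher, with a median of -0.04 beside -0.07 over all genes (edgeR). The other hosts with most reads inside snoRNAs were Rbmx, Zfas1, Rps12, and the overlapping Mcmdc2 and Snhg6, which share 1 snoRNA and its reads. Between 94.4% and 98.1% of their reads lay within 20 nt of a snoRNA. A ranking by reads strictly inside passes over hosts whose reads lie just before the span. Taf1d, for instance, had 22 reads inside and 357 within 20 nt, against 196 within 20 nt for Snhg6. Rps12 was called higher in the knockout Ago2 IP (0.77, SE 0.23, adjusted p = 0.0177, edgeR), and 46.1% of its reads near snoRNAs were of the miR-181 family.

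Of the 8 core proteins of snoRNA particles (Fbl, Nop56, Nop58, Snu13, Dkc1, Nop10, Nhp2 and Gar1), 7 had reads, and only Nop58 passed the count filter of the tested comparisons. Nop56 followed with 200 reads, 167 of them in wild-type enriched libraries, and Gar1 had 0. Across the 12 libraries, the genes whose log2(rpm + 10) followed the mean of the 6 most closely, among 2421 genes with at least 100 reads, were Lars2 (Pearson r = 0.95), Dnttip2 (0.947), Hnrnpl (0.937), Sf3b3 (0.926) and Gm6712 (0.923). These values share library depth and the contrast between the 4 groups, and are a description.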

How the data were processed

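A company made the libraries and sequenced them with paired reads of 150 nt, per the labels' protocols. The authors deposited unscaled counts, with a line for every chimeric read that gives its position, strand and miRNA, and replicates kept apart. The submitters' processing notes name builds mm10 and GRCm38.p6 and the tools Bowtie2 2.4.5, SAMtools 1.11, STAR 2.7.10, UMI-tools 1.1.1 and bedtools 2.30.0, without their roles. The 12 libraries had 24 files. The genes and lists were chosen with earlier results of these data known.

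Reads were counted per RefSeq gene span on the gene's strand, which for Hspa8 and Rpl21 was the more frequent strand of their reads. Pairwise fits used edgeR 4.0.16 (quasi-likelihood F test, TMM, filterByExpr with a minimum count of 10, Benjamini-Hochberg adjustment over all genes tested) in R 4.3.3 with a threshold of 0.05 on the adjusted p, and were checked on simulated data. Alternatives were library sizes, DESeq2 1.42.0, no filter, identical reads counted once, both strands, snoRNA reads left out, a replicate block, each library left out, knockout enriched libraries 2 and 3 summed, and, chosen after seeing the data, chimeras of other miRNAs alone. Named genes were the 6 hosts and their snoRNAs, the 5 other hosts with most reads inside snoRNAs, the 5 most alike genes and the core proteins. Taf1d was added as an example of the limit of that ranking. No 2 replicates agreed within sampling noise (chi-square over genes). Same-numbered libraries did not deviate together in every pair, so numbers were not taken as pairs. Their correlations ran from -0.104 to 0.00485 between genotypes. Between the enriched and Ago2 IP libraries of the same genotype all were positive, from 0.00528 to 0.103.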

Additional observations from a re-analysis of the deposited data

How the results depend on the processing

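Between genotypes in the Ago2 IP, 164 genes were called, 61 in DESeq2 (5 higher and 56 lower, against 55 and 109) and 32 with chimeras of other miRNAs alone, the latter chosen after seeing the data. In the knockout enrichment 177 were called, and 19 with other miRNAs alone. The pooled share inside snoRNA spans rose with widened spans to 70.6%, 74.4%, 92.4% and 94.9% (wild-type and knockout Ago2 IP, then enriched), and counted once was 39.2% in knockout Ago2 IP and 36.5% in wild-type enriched libraries. Snhg1 in the Ago2 IP turned to 0.0718 counted once, and ranged from -0.32 to 0.0682 with 1 library left out. Rpl13a in the knockout enrichment was -0.0604 by library sizes, -0.11 in DESeq2, -0.50 without a filter and -0.29 with other miRNAs alone, and ranged from -0.26 to 0.41 with 1 library left out. Counted once, knockout against wild type after enrichment was 0.0847 for Hspa8, 0.79 for Rpl21, 0.16 for Rpl13a, 0.91 for Nop58, 0.0618 for Gas5 and 0.54 for Snhg1. Gas5 without a filter was 1.04 (adjusted p = 0.403, edgeR). The cause of these changes was not tested. The knockout enriched libraries limit precision, with 1 to 17 reads per gene.

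With the replicate number as a block, 129 genes were called between genotypes and 168 in the knockout enrichment, and no call of the 6 genes changed. In the knockout enrichment every library correlated best with its own number, a hint from the data and not the design.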
